A study of Mus musculus with 12 samples.

Results

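Anergic CD4 T cells were set against effector CD4 T cells (Teff) by total RNA sequencing of cells sorted straight from the mouse. The comparison used 6 of the 12 libraries of the series, 3 of Anergic and 3 of Teff cells, chosen by their labels alone and by no measured value. Anergic cells were gated as CD44high and FOXP3-negative with high CD73, high FR4 and surface NRP1. Teff were also CD44high and FOXP3-negative, with low CD73 and low FR4. The mice behind all libraries were wild-type C57BL/6 with GFP reporting Foxp3 and a polyclonal T cell repertoire, without treatment, from spleen and lymph node cells mixed with each other. The age of the mice, and whether a library holds cells of 1 or several animals, is not given in the sources used here. The p-values below therefore rest on the spread between libraries alone, which may be technical. The remaining libraries, 3 of regulatory T cells (Treg, FOXP3 and CD25 positive) and 3 of Naive cells (CD44low), gave levels for orientation and a shared estimate of the spread. By its title the series is about BATF, a transcription factor, and its bearing on BIM, a death protein, in tolerant T cells.

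Anergy is a state in which a T cell that has met its antigen under tolerising conditions survives but responds poorly when it meets the antigen again. Such cells receive T cell receptor (TCR) signals, express inhibitory receptors and keep NFAT-driven genes on, while the genes of effector function stay low. CD73 (gene Nt5e), an ecto-enzyme that makes adenosine, and FR4 (gene Izumo1r) mark them on the surface, but they also mark other antigen-experienced CD4 T cells, among them follicular helper cells. The gate therefore defines the groups here, and unresponsiveness itself was not measured in these libraries.

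The 6 libraries held 7681469 to 8643772 counts each. Levels are CPM (a gene's counts relative to the library's total, scaled by library size and TMM factor), and differences are log2 fold changes of Anergic over Teff from edgeR's quasi-likelihood test. A gene is called higher or lower at a Benjamini-Hochberg adjusted p under 0.05 over all 13393 genes tested. By this rule 3566 genes (26.6%) were called, 1864 (13.9%) higher and 1702 (12.7%) lower in Anergic cells. Scaling by total counts alone gave 1218 higher and 2276 lower, a shift in the split that bears on small differences. At 2-fold or more, 1181 genes (8.82%) were called, 633 (4.73%) higher and 548 (4.09%) lower. The 3 Anergic libraries all lay above the 3 Teff libraries in 19.6% of the genes tested and all below them in 18.2%, which is the background for each statement below that the subsets did not overlap. The median log2 fold change over all genes tested was 0.00. With so many genes called, a list of genes is read below against 13.9% higher and 12.7% lower. Mitochondrial ribosomal RNA took 13.9 to 16.2% of counts in Anergic libraries and 10.95 to 12.3% in Teff libraries. Its part in the differences was not tested beyond the refit without abundant entries given below. Anergic replicate 3 stood apart, with 40.4% of its counts in 6 abundant entries, against 30.5 to 34.8% in the other libraries of the 2 subsets. Without that library 3182 genes were called. With the 6 entries removed, among them mt-Rnr1 and mt-Rnr2 of mitochondrial ribosomal RNA, 3559 were called, of which 3529 were shared with the main test. In bulk libraries a lower level of RNA per cell and a smaller share of expressing cells cannot be told apart, here and in all results below.

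**Figure D1:**
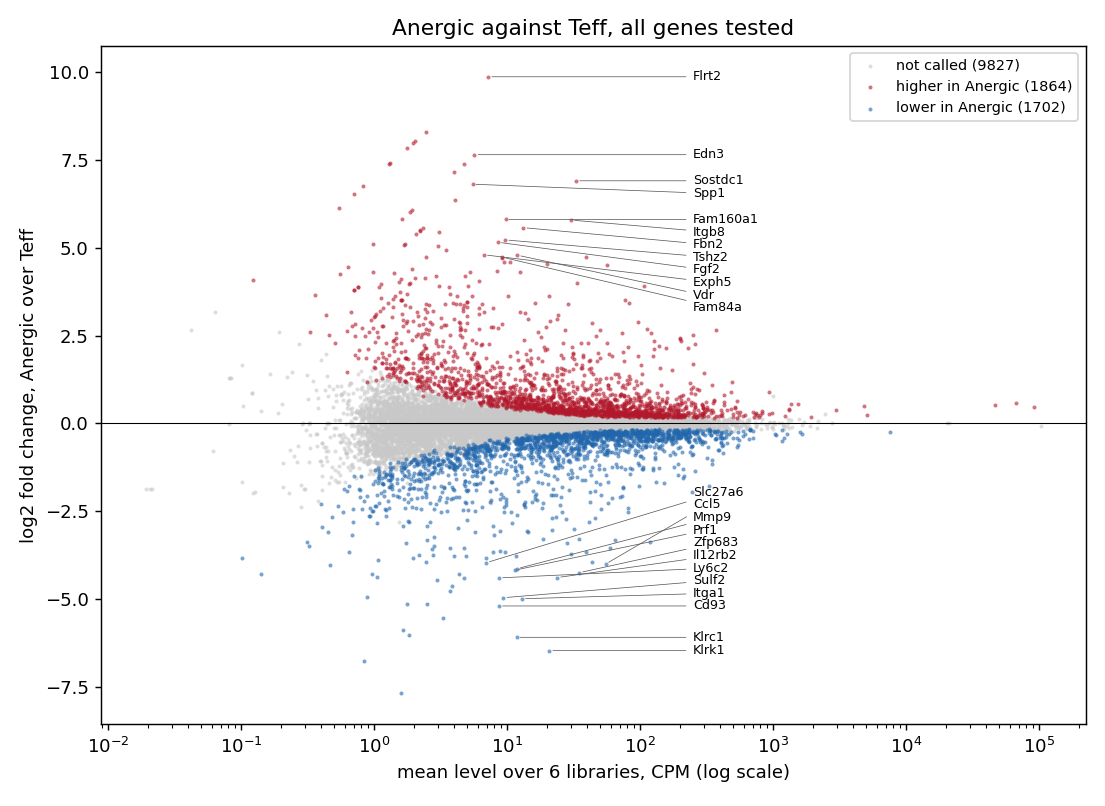
Difference against level for the 13393 genes tested. The horizontal axis is the mean level over the 6 libraries in CPM (log scale) and the vertical axis is the log2 fold change of Anergic over Teff; coloured points are the 1864 genes called higher and the 1702 called lower in Anergic cells, and the 12 highest and 12 lowest differences under the naming rule carry their gene symbols, which run down the plot to Klrk1, with Flrt2 uppermost.

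The genes of the sort gates followed the labels. Izumo1r reached 421, 428 and 420.5 CPM in the 3 Anergic libraries, against 75.2, 72.4 and 73.4 CPM in the 3 Teff libraries (log2 fold change 2.52 ± 0.0652 SE, adjusted p = 3.18e-18). Nt5e stood at 278, 231 and 258 CPM in Anergic and 58.996, 52.8 and 60.3 CPM in Teff libraries (log2 fold change 2.15 ± 0.0808 SE, adjusted p = 1.07e-15). Nrp1, a co-receptor for semaphorins, stood at 369.5, 301 and 326 CPM in Anergic and 71.4, 59.9 and 56.6 CPM in Teff libraries (log2 fold change 2.40 ± 0.0911 SE, adjusted p = 1.07e-15). For all of them every Anergic library lay above every Teff library, and since the gate selected on these proteins this describes the sort and is no finding. Cd44, high in both gates, had 303, 328 and 369 CPM in Anergic and 286, 303 and 295 CPM in Teff libraries, a log2 fold change of 0.18 ± 0.0776 SE that was not called (adjusted p = 0.0978) and was called without Anergic replicate 1 (adjusted p = 0.0286). Cd4 was 1.87-fold higher in Anergic cells, at 1165, 1196 and 1297 CPM against 616, 669 and 669 CPM in Teff libraries.

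Foxp3, the Treg master regulator and the gene of the reporter, was detected above the Teff level in the FOXP3-negative Anergic sort. It had 20.3, 14.996 and 19.3 CPM in Anergic libraries and 0.810, 0.371 and 1.02 CPM in Teff libraries (log2 fold change 4.60 ± 0.212 SE, adjusted p = 2.84e-14), while Treg libraries had 537, 529 and 560.4 CPM. Of the 24 Treg genes tested, 18 were called higher and 3 lower, with a median log2 fold change of 2.07. The list holds Nrp1, on which the Anergic gate selected, so that call describes the sort and is no finding. Members sat at very different fractions of the Treg level. Anergic libraries averaged 3.36% of the mean Treg level for Foxp3 and 1.75% for Lrrc32, the surface carrier of latent TGF-beta, but 70.8% for Ikzf2, which encodes HELIOS, 131% for Nrp1 and 89.8% for Cd83. Il2ra, which encodes CD25, went the other way, with 11.3, 13.8 and 20.6 CPM in Anergic and 44.999, 38.7 and 49.5 CPM in Teff libraries, against 704, 661 and 759 CPM in Treg libraries. Lrrc32 had no count in any Teff library, and Anergic cells were at least 33.3-fold higher, against a floor of 3 counts over the 3 Teff libraries. The part of stray Treg in the Anergic sort was not tested, and exons of Foxp3 share 18.6% of their length with a neighbour on the same strand.

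**Figure D2:**
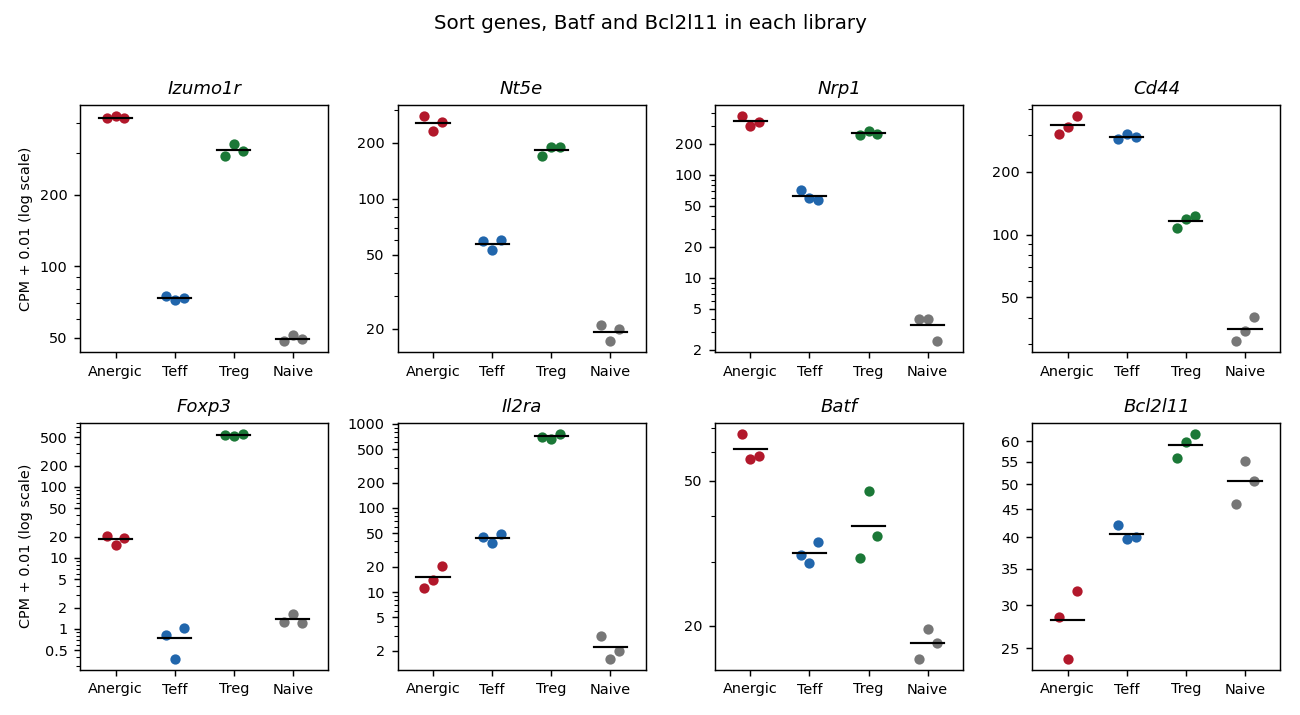
Levels of the sort genes, of Foxp3 and Il2ra and of Batf and Bcl2l11 in every library, in CPM with 0.01 added, on a log scale. Each point is 1 library and each short bar the mean of 3; within a panel the subsets run Anergic, Teff, Treg and Naive. Izumo1r, Nt5e, Nrp1 and Batf sit higher in Anergic than in Teff libraries and Bcl2l11 and Il2ra sit lower.

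Batf was higher and Bcl2l11 lower in Anergic cells. Batf stood at 67.4, 57.3 and 58.5 CPM in Anergic and 31.3, 29.7 and 33.97 CPM in Teff libraries (log2 fold change 0.95 ± 0.116 SE, adjusted p = 7.18e-07). Bcl2l11 stood at 28.5, 23.9 and 31.9 CPM in Anergic and 42.1, 39.7 and 39.9 CPM in Teff libraries (log2 fold change -0.53 ± 0.0986 SE, adjusted p = 0.000178). Neither gene's libraries overlapped between the subsets. In GRCm38, Batf lies on chromosome 12 from 85686669 to 85709087 and Bcl2l11 on chromosome 2 from 128126038 to 128162547. BATF binds DNA with a JUN partner at AP-1 motifs, so windows from 250 bases before to 50 after the start of both genes were searched. The motif was TGANTCA on both strands, where N is any base. Windows of Flrt2 and Klrk1, with the highest and the lowest log2 fold change under the naming rule, were searched too. Gene positions are from the GENCODE annotation. Windows are from RefSeq on GRCm38.p6, written on the strand of the gene, with a match in capitals.
Batf, chr12:85686470-85686769, strand +: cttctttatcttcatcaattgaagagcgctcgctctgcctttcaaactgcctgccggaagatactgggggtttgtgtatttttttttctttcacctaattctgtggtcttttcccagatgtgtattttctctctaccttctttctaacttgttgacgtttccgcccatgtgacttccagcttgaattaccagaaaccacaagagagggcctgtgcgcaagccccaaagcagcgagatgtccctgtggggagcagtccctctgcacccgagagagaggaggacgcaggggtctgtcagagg
Bcl2l11, chr2:128125788-128126087, strand +: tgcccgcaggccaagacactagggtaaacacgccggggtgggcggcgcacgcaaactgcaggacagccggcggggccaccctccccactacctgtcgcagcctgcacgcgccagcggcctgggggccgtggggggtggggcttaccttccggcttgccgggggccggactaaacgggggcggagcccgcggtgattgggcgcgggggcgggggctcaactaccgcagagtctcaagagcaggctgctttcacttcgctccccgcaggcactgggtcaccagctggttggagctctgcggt
Flrt2, chr12:95691976-95692275, strand +: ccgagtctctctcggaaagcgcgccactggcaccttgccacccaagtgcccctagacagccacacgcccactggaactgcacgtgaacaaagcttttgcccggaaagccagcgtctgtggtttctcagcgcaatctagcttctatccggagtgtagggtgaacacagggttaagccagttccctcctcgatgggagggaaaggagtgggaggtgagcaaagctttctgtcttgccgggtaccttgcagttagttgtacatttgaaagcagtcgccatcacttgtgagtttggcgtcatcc
Klrk1, chr6:129623815-129624114, strand -: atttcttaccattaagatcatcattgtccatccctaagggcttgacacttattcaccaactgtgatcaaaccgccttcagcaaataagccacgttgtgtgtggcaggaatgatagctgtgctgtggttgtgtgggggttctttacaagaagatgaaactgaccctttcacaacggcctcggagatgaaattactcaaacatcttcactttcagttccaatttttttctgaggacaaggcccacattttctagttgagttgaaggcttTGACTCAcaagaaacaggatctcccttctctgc
Klrk1 held 1 match, beginning 17 bases past the start, and the letters were not in the windows of Batf, Bcl2l11 or Flrt2. Among all 32851 windows of this length 7.81% held a match. So did 1 of the 16 genes that have a window among the 24 with the largest differences under the naming rule. These matches describe letters only and say nothing of binding.

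Transcription factors of the NR4A, EGR, NFAT and TOX list were mostly higher in Anergic cells. Of the 16 members tested, 10 were called higher and 1 lower, with a median log2 fold change of 0.55, or 8 and 1 when scaled by total counts. The largest difference among them was in Tox, a factor of persistently stimulated T cells, at 216, 184 and 199 CPM in Anergic and 59.3, 47.99 and 48.7 CPM in Teff libraries (log2 fold change 1.94 ± 0.0824 SE, adjusted p = 6.86e-15). Tox2 had 112, 88.1 and 88.9 CPM in Anergic and 23.4, 27.2 and 26.5 CPM in Teff libraries, and Egr3, an anergy-linked zinc-finger factor, 64.2, 65.1 and 64.4 CPM against 21.98, 25.7 and 25.1 CPM in Teff libraries. Nfatc1, an NFAT gene that is itself an NFAT target, reached 742, 644 and 645 CPM in Anergic and 319.9, 285 and 293 CPM in Teff libraries (log2 fold change 1.18 ± 0.0716 SE, adjusted p = 4.8e-12). No library of these genes overlapped between the subsets. Nfat5 was 1.57-fold, Egr1 1.83-fold and Nr4a3 1.4005-fold higher, whereas Nfatc2 was 1.16-fold lower, which did not pass without Anergic replicate 1 (adjusted p = 0.0575) or Teff replicate 1 (adjusted p = 0.0666). Nr4a1 was 1.27-fold higher, which was not called when scaled by total counts (adjusted p = 0.0609). Egr2, an anergy gene in the same family, was listed at 0 in all 12 libraries and cannot be read here.

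Factors of the BATF, AP-1, IRF and BACH list did not share a direction, with 5 of 16 called higher and 6 lower. Irf4, the partner of BATF at composite motifs, stood at 108, 84.2 and 89.9 CPM in Anergic and 33.7, 35.6 and 37.8 CPM in Teff libraries, and Nfil3, a basic leucine zipper factor, at 40.8, 22.3 and 26.04 CPM against 3.12, 2.84 and 2.16 CPM in Teff libraries. Maf, a driver of IL-10 and IL-21, reached 536, 442 and 433 CPM in Anergic and 233, 214 and 217 CPM in Teff libraries. The Anergic libraries of these genes all lay above the Teff libraries. Fosl2 was 1.51-fold, Irf1 1.36-fold and Bach1 1.41-fold lower in Anergic cells. In the Ikaros family, Ikzf2 had 458, 322 and 347 CPM in Anergic and 92.3, 79.9 and 79.3 CPM in Teff libraries, and Ikzf4, which encodes EOS, 30.98, 19.4 and 22.7 CPM against 3.01, 2.597 and 2.54 CPM in Teff libraries. Ikzf1 and Ikzf3, which encode IKAROS and AIOLOS, were 1.301-fold and 1.85-fold lower in Anergic cells, so the family split. Of the NF-kB genes 6 of 11 were called higher and none lower, or 3 when scaled by total counts, with Rel at 99.2, 85.99 and 87.6 CPM in Anergic and 64.4, 58.3 and 59.4 CPM in Teff libraries.

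The genes that carry the TCR signal moved in both directions along the pathway. Of 24 tested, 11 were called higher and 6 lower, with a median log2 fold change of 0.13. Among receptor and proximal genes, Cd3e was 1.39-fold, Zap70, the kinase recruited to the CD3 chains, 1.52-fold and the adaptor gene Lcp2, which encodes SLP-76, 1.33-fold higher in Anergic cells. Malt1, the paracaspase that links the receptor to NF-kB, stood at 314, 258 and 226 CPM in Anergic and 161, 143 and 146 CPM in Teff libraries. Txk, a Tec family kinase gene, was lower. It stood at 23.4, 25.5 and 27.5 CPM in Anergic and 153, 121 and 132 CPM in Teff libraries (log2 fold change -2.41 ± 0.0893 SE, adjusted p = 8.82e-16). Rasgrp1, which couples diacylglycerol to RAS, had 143, 179.7 and 193 CPM in Anergic and 311, 291 and 302 CPM in Teff libraries, and Grap2, which encodes the adaptor GADS, 134, 159.6 and 156 CPM against 267, 259 and 269 CPM in Teff libraries. In each of these 7 genes the subsets did not overlap.

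Brakes on TCR signalling were likewise mixed. Of 26 attenuator genes tested, 11 were called higher and 7 lower, or 6 and 7 when scaled by total counts. Ptpn11, which encodes the phosphatase SHP-2 that PD-1 and BTLA recruit, had 427, 373 and 344 CPM in Anergic and 129.8, 111 and 116 CPM in Teff libraries (log2 fold change 1.68 ± 0.0760 SE, adjusted p = 2.15e-14). Spry1, an inhibitor of RAS signalling, had 62.4, 45.3 and 43.3 CPM in Anergic and 10.5, 12.6 and 10.3 CPM in Teff libraries, and Lax1, an inhibitory adaptor, 158, 143 and 133 CPM against 86.2, 86.2 and 89.9 CPM in Teff libraries. Members that fell included Pag1, the adaptor that brings the inhibitory kinase CSK to the membrane, at 61.3, 79.5 and 71.9 CPM in Anergic and 149, 139.8 and 132 CPM in Teff libraries, and Dok2, at 39.9, 40.7 and 39.99 CPM against 86.6, 90.7 and 93.1 CPM in Teff libraries. The libraries of all 5 were separate between the subsets. Among diacylglycerol kinases, which remove the lipid messenger that activates RASGRP1, Dgkz had 667, 665 and 602 CPM in Anergic and 426, 398 and 418 CPM in Teff libraries and Dgki 7.39, 3.98 and 5.85 CPM against 0.463, 0.371 and 0.254 CPM in Teff libraries, while Dgkd was 1.59-fold lower. Dgka, the diacylglycerol kinase gene most often tied to anergy, stood at 645, 677 and 617 CPM in Anergic and 608, 641 and 658 CPM in Teff libraries, a log2 fold change of 0.02 ± 0.0622 SE that was not called (adjusted p = 0.825) and whose libraries overlapped. Of the E3 ligases and adaptors 3 of 19 were called higher and 8 lower, with 5 higher without Teff replicate 1. Rnf128, which encodes GRAIL, had 10.6, 7.97 and 10.8 CPM in Anergic and 2.54, 1.86 and 1.53 CPM in Teff libraries. Nedd4 had 3.99, 5.04 and 6.91 CPM in Anergic and 83.3, 77.1 and 85.4 CPM in Teff libraries, and Cblb, at 182, 184 and 178 CPM against 204, 162 and 165 CPM in Teff libraries, was not called (log2 fold change 0.04 ± 0.0823 SE, adjusted p = 0.794).

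Costimulatory receptor genes were called in every case, 14 of 17 higher and 3 lower in Anergic cells, with a median log2 fold change of 0.52. When scaled by total counts 11 were higher and 3 lower. The largest differences were in the TNF receptor family. Tnfrsf4, which encodes OX40, had 99.4, 74.6 and 85.8 CPM in Anergic and 13.1, 14.2 and 13.7 CPM in Teff libraries (log2 fold change 2.66 ± 0.104 SE, adjusted p = 1.64e-15), and Tnfrsf9, which encodes 4-1BB, 40.1, 38.5 and 45.97 CPM against 10.9, 12.5 and 10.8 CPM in Teff libraries. Tnfrsf1b, which encodes TNFR2, had 164, 122 and 155 CPM in Anergic and 83.9, 76.3 and 68.7 CPM in Teff libraries. The Anergic libraries were all above the Teff libraries. In the SLAM family, Slamf6 was 1.99-fold higher, whereas Ly9 and Cd48 were 1.23-fold and 1.29-fold lower. Cd226, which competes with the inhibitory receptor TIGIT for ligand, stood at 51.3, 68.4 and 67.2 CPM in Anergic and 153, 147 and 142 CPM in Teff libraries, and Tigit at 101, 63.4 and 71.7 CPM against 13.8, 13.98 and 14.6 CPM in Teff libraries. That receptor pair was thus opposed in direction. Of the inhibitory receptor genes 5 of 13 were called higher and 4 lower. Lag3, which binds MHC class II, had 147, 84.5 and 92.1 CPM in Anergic and 6.48, 1.98 and 5.47 CPM in Teff libraries (log2 fold change 4.53 ± 0.233 SE, adjusted p = 1.97e-13), and Pdcd1 142, 114 and 121 CPM against 20.5, 20.7 and 21.9 CPM in Teff libraries. Cd160 and Pvrig, members that fell, were 4.296-fold and 3.72-fold lower.

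Among cytokine and TNF family ligand genes, 14 of 25 tested were called higher and 6 lower in Anergic cells. Tnfsf8, which encodes CD30 ligand, had 237, 188 and 189.99 CPM in Anergic and 32.97, 35.4 and 34.1 CPM in Teff libraries (log2 fold change 2.59 ± 0.0917 SE, adjusted p = 4.73e-16). Il21, the cytokine of follicular helper cells, had 69.7, 45.8 and 41.5 CPM in Anergic and 3.12, 5.69 and 6.11 CPM in Teff libraries (log2 fold change 3.40 ± 0.209 SE, adjusted p = 5.77e-12). Csf1, the macrophage growth factor, had 43.7, 34.1 and 33.7 CPM in Anergic and 3.01, 4.82 and 6.997 CPM in Teff libraries, and Tnfsf11, which encodes RANKL, 71.9, 64.6 and 58.2 CPM against 17.9, 18.6 and 19.3 CPM in Teff libraries. None of these 4 overlapped between the subsets. Il10, the suppressive cytokine, was low in both subsets and higher in Anergic cells, at 5.52, 1.17 and 1.99 CPM in Anergic and 0.116, 0.371 and 0 CPM in Teff libraries, and Areg likewise at 3.17, 2.69 and 2.92 CPM against 0.347, 0.247 and 0.127 CPM in Teff libraries. Fasl, at 7.98, 9.14 and 7.97 CPM in Anergic and 36.6, 33.5 and 32.8 CPM in Teff libraries, and Tnfsf14, which encodes LIGHT, at 32.9, 31.05 and 37.6 CPM against 49.2, 50.96 and 42.7 CPM in Teff libraries, fell. Ifng, which shares 25.9% of its exon length with a neighbour on the same strand, was 1.54-fold lower, at 23.7, 14.2 and 10.5 CPM in Anergic and 27.3, 23.99 and 23.8 CPM in Teff libraries, which did not pass without Anergic replicate 2 (adjusted p = 0.103), Anergic replicate 3 (0.133) or Teff replicate 1 (0.0828). Il2 was barely detected, at 1.76, 1.41 and 1.196 CPM in Anergic and 2.31, 1.86 and 1.91 CPM in Teff libraries, and was not called (log2 fold change -0.47 ± 0.403 SE, adjusted p = 0.441).

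**Figure D3:**
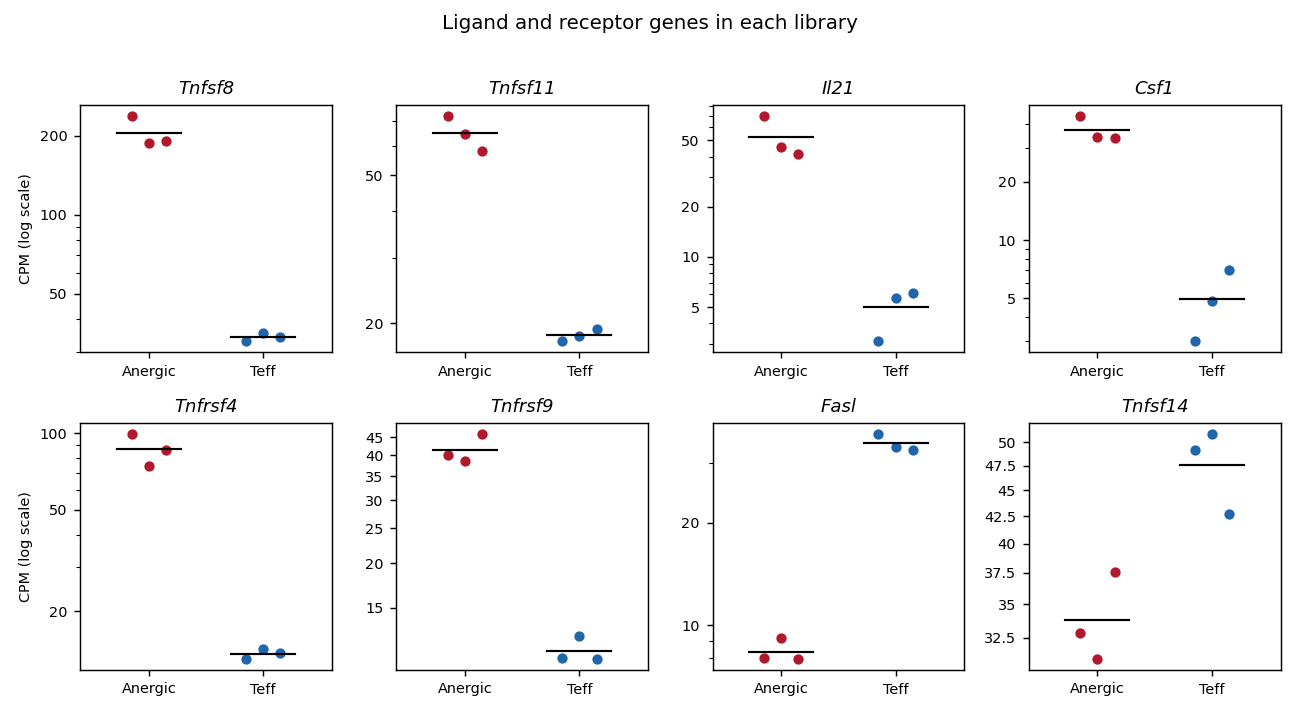
Levels of 8 ligand and receptor genes in the 3 Anergic and 3 Teff libraries, in CPM on a log scale. Each point is 1 library and each short bar a mean; Tnfsf8, Tnfsf11, Il21, Csf1, Tnfrsf4 and Tnfrsf9 sit higher in the Anergic libraries, and Fasl and Tnfsf14 sit lower.

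Several cytokine receptor genes were lower in Anergic cells. Of 35 cytokine receptor, SOCS and STAT genes tested, 9 were called higher and 15 lower, or 5 and 16 when scaled by total counts. Il7r, the receptor for the survival cytokine IL-7, had 119.6, 138 and 175 CPM in Anergic and 402, 347 and 360.3 CPM in Teff libraries (log2 fold change -1.36 ± 0.108 SE, adjusted p = 5.46e-10). Ifngr1 had 24.5, 34.6 and 39.99 CPM in Anergic and 96.7, 135 and 116 CPM in Teff libraries, and Il4ra 55.9, 63.03 and 62.2 CPM against 132, 136 and 124 CPM in Teff libraries. Il6st, the signalling chain gp130, went the other way, with 364, 358 and 372 CPM in Anergic and 189.6, 185 and 192 CPM in Teff libraries, as did the decoy receptor gene Il1r2, with 12.8, 7.97 and 9.699 CPM in Anergic and 1.85, 0.371 and 0.127 CPM in Teff libraries. The subsets were separate for all 5 genes. The IL-2 feedback genes Socs2 and Cish were 3.2001-fold and 1.35-fold lower in Anergic cells, beside the lower Il2ra, and Socs2 was 5.22-fold lower without Anergic replicate 1.

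The Th1 and cytotoxic genes were mostly lower in Anergic cells. Of 14 Th1 regulators and receptors tested, 10 were called lower and 2 higher, with a median log2 fold change of -1.52, and neither of the higher members, Bhlhe40 and Zeb2, was called without Anergic replicate 1 or without Teff replicate 3. Tbx21, which encodes the Th1 master factor T-bet, had 38.6, 28.8 and 29.6 CPM in Anergic and 117, 118 and 114 CPM in Teff libraries (log2 fold change -1.85 ± 0.127 SE, adjusted p = 4.42e-11). Runx3 had 64.5, 70.3 and 83.97 CPM in Anergic and 176, 179 and 168 CPM in Teff libraries, and Il12rb2, the IL-12 receptor chain, 2.58, 2.34 and 1.46 CPM against 43.4, 47.7 and 45.03 CPM in Teff libraries. A gene on the opposite strand overlaps 40% of the exon length of Il12rb2, 24.4% for Spry1, 22.1% for Dusp5, 19% for Ccr9, 18.7% for Foxp3 and 14.3% for Penk, and whether counting used the strand is not stated. Cxcr3, a Th1 homing receptor, had 92.4, 88.2 and 89.5 CPM in Anergic and 131, 131 and 123 CPM in Teff libraries. In these genes each Anergic library was below each Teff library. Eomes, the sister gene of Tbx21, had 20.8, 14.1 and 12.9 CPM in Anergic and 12.8, 13.4 and 16.03 CPM in Teff libraries and was not called (log2 fold change 0.18 ± 0.173 SE, adjusted p = 0.494). Zfp683, which encodes the resident-memory factor HOBIT, was among the 12 lowest genes under the naming rule, with 3.403, 2.69 and 4.38 CPM in Anergic and 78.3, 59.4 and 60.7 CPM in Teff libraries. Of the cytotoxic and effector chemokine genes 9 of 14 were called lower and 2 higher, but 1 higher when scaled by total counts, without Anergic replicate 3 or without Teff replicate 1. Prf1, which encodes perforin, had 0.704, 0.937 and 1.99 CPM in Anergic and 20.8, 22.8 and 21.4 CPM in Teff libraries, and Nkg7 6.45, 8.44 and 6.78 CPM against 45.9, 52.8 and 45.4 CPM in Teff libraries. Naive libraries were above Teff libraries for Prf1, at 33.2, 31.4 and 33.6 CPM, and Treg libraries averaged 8.16 CPM. The difference in Prf1 is thus not a gain particular to Teff. Srgn, the granule proteoglycan gene, rose, with 338, 315 and 342 CPM in Anergic and 178, 180.2 and 196 CPM in Teff libraries, while Gzmk, at 6.22, 9.49 and 6.11 CPM against 8.56, 4.33 and 5.47 CPM in Teff libraries, was not called (log2 fold change 0.25 ± 0.311 SE, adjusted p = 0.622).

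Killer lectin receptor and innate-like T cell genes fell in 10 of 11 tested members, with a median log2 fold change of -3.04, and none rose. Klrk1, which encodes NKG2D, had 0.587, 0.469 and 0.266 CPM in Anergic and 48.4, 35.1 and 39.4 CPM in Teff libraries (log2 fold change -6.47 ± 0.274 SE, adjusted p = 6.86e-15). Klrc1, which encodes NKG2A, had 0.117, 0.586 and 0.266 CPM in Anergic and 23.4, 24.1 and 22.1 CPM in Teff libraries, and Klrb1c, which encodes NK1.1, 4.34, 4.57 and 5.31 CPM against 51.8, 29.7 and 34.9 CPM in Teff libraries. Zbtb16, which encodes PLZF, the factor of innate-like T cells, had 17.8, 23.1 and 28.2 CPM in Anergic and 123, 91.5 and 84.9 CPM in Teff libraries (log2 fold change -2.12 ± 0.142 SE, adjusted p = 2.62e-11). The subsets did not overlap in any of the 4, and in Treg and Naive libraries Zbtb16 averaged 0.440 and 0.481 CPM. Klrc1 and its near copy Klrc2 may share reads, and 13.9% of the exon length of Klrb1c is shared with a neighbour on the same strand. The constant genes of the gamma chain of the other T cell receptor type were also lower. Tcrg-C1 had 1.41, 1.52 and 1.73 CPM in Anergic and 8.56, 6.93 and 10.3 CPM in Teff libraries, and Tcrg-C2 3.17, 3.63 and 3.72 CPM against 16.1, 13.5 and 15.3 CPM in Teff libraries. The delta constant gene Trdc went the other way, at 3.87, 2.81 and 8.64 CPM in Anergic and 1.62, 3.22 and 2.16 CPM in Teff libraries, with overlapping libraries and a call that did not pass without Anergic replicate 3 (adjusted p = 0.355), Teff replicate 1 (0.122) or Teff replicate 3 (0.0833). Traj18, the joining segment of invariant NKT cells, was not called, with 10.2, 11.8 and 8.77 CPM in Anergic and 13.997, 11.3 and 9.54 CPM in Teff libraries (log2 fold change -0.18 ± 0.167 SE, adjusted p = 0.495), and its partner Trav11 had 0 counts in Anergic and 1 in Teff libraries. Of the defining NK cell genes, Ncr1 had 0 counts in Anergic and 1 in Teff libraries, Klra8 and Klra4 had none, and the NK marker list summed to 22.1 to 28.2 CPM in Anergic and 63.4 to 79.1 CPM in Teff libraries, mostly Klrb1c, Eomes and Itga2. The part of NKT or gamma-delta T cells in the Teff sort was not tested.

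**Figure D4:**
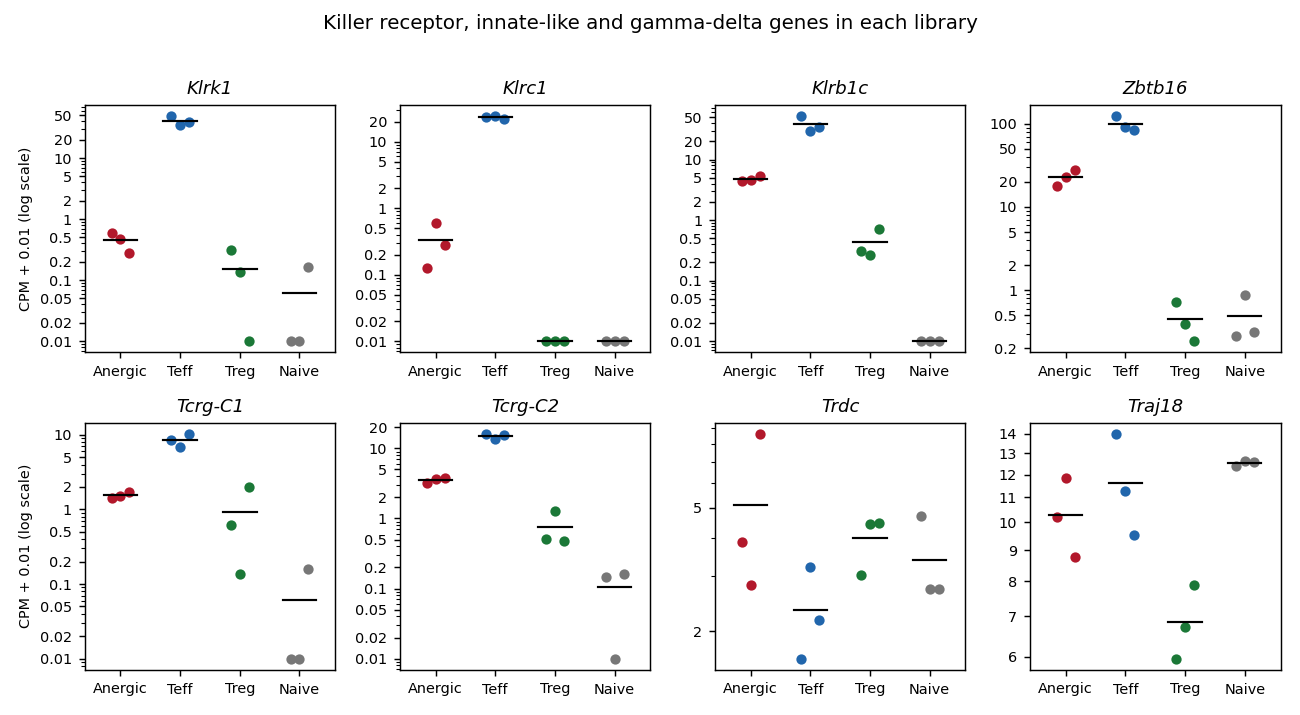
Levels of killer receptor, innate-like and gamma-delta receptor genes in every library, in CPM with 0.01 added, on a log scale. Each point is 1 library and each short bar the mean of 3, and the subsets run Anergic, Teff, Treg and Naive; Klrk1, Klrc1, Klrb1c, Zbtb16, Tcrg-C1 and Tcrg-C2 have their highest mean in Teff libraries, and Trdc and Traj18 do not.

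Follicular helper genes rose in 17 of 20 tested members and fell in none, with a median log2 fold change of 1.14, or 16 and 1 when scaled by total counts. Bcl6, the master repressor of that lineage, had 78.03, 66.9 and 74.4 CPM in Anergic and 21.4, 19.4 and 23.5 CPM in Teff libraries (log2 fold change 1.77 ± 0.0939 SE, adjusted p = 3.72e-13). Cxcr5, its follicle-homing receptor, had 133, 128 and 128 CPM in Anergic and 59.3, 52.7 and 57.1 CPM in Teff libraries, and Cxcr4 78.9, 54.9 and 55.7 CPM against 17.4, 17.2 and 20.99 CPM in Teff libraries. Cd200 had 65.7, 66.3 and 70.9 CPM in Anergic and 12.8, 14.1 and 14.5 CPM in Teff libraries. All Anergic libraries were above all Teff libraries in these genes. Prdm1, which encodes BLIMP-1, the antagonist of BCL6, was 1.498-fold lower, which did not pass without Anergic replicate 2 (adjusted p = 0.0778), Anergic replicate 3 (0.0510) or Teff replicate 1 (0.0605). Il4 and Cd40lg, helper signals to B cells, were not called, with Il4 at 3.05, 6.09 and 6.78 CPM in Anergic and 4.97, 8.29 and 6.49 CPM in Teff libraries and Cd40lg at 137, 135 and 136 CPM against 149, 154 and 149.7 CPM in Teff libraries. When scaled by total counts Cd40lg was called lower (adjusted p = 0.0229). FR4 and PD-1 are themselves carried by follicular helper cells, and the part of such cells in the Anergic sort was not tested.

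Receptors for homing and egress were mostly lower. Of 22 chemokine receptor and egress genes tested, 13 were called lower and 4 higher. The inflammatory receptor Ccr2 had 4.11, 6.09 and 7.04 CPM in Anergic and 71.95, 72.6 and 71.9 CPM in Teff libraries (log2 fold change -3.66 ± 0.176 SE, adjusted p = 5.84e-14), and Cxcr6 14.7, 22.1 and 24.8 CPM against 202, 216 and 225 CPM in Teff libraries. Klf2, which drives the egress receptor gene S1pr1, had 181, 178 and 175 CPM in Anergic and 309, 350.1 and 309.8 CPM in Teff libraries, and S1pr1 168, 175 and 179.6 CPM against 220.4, 236 and 231 CPM in Teff libraries. Ccr9, a gut-homing receptor, was 4.08-fold lower, whereas Ccr7 and Gpr183, which place T cells within lymphoid tissue, were 1.29-fold and 1.397-fold higher. The subsets were separate for each of these 7 genes.

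Integrin genes moved in both directions. Of 22 integrin and adhesion genes tested, 8 were called higher and 8 lower, or 5 and 9 when scaled by total counts. Itgb8 and Itgav, which together form a TGF-beta-activating integrin, were both higher. Itgb8 had 76.98, 46.04 and 55.3 CPM in Anergic and 1.62, 0.495 and 1.02 CPM in Teff libraries (log2 fold change 5.79 ± 0.248 SE, adjusted p = 7.7e-15), and Itgav 125, 106 and 108 CPM against 52.6, 47.7 and 52.3 CPM in Teff libraries. Itgb3, another partner of the alpha V chain, had 17.5, 24.6 and 31.2 CPM in Anergic and 130.1, 146 and 139 CPM in Teff libraries. The collagen receptor chains Itga1 and Itga2 were lower, Itga1 at 0.469, 1.05 and 0.797 CPM in Anergic and 36.8, 18.2 and 20.1 CPM in Teff libraries and Itga2 at 1.64, 1.87 and 2.13 CPM against 12.5, 18.1 and 16.8 CPM in Teff libraries. Downstream of TGF-beta, Smad3 and the feedback inhibitor Smad7 were 2.28-fold and 1.86-fold lower, and the transcriptional corepressor genes Tgif1 and Skil were 1.84-fold and 1.43-fold higher. Of the semaphorin system 8 of 15 genes tested were called higher and 4 lower, with 5 higher under a filter of at least 5 CPM in 3 libraries. Nrp1, on which the Anergic gate selected, is among the 8. The plexin receptor genes Plxnb1 and Plxnb2 were 4.79-fold and 10.6-fold higher beside Nrp1 (17.3-fold for Plxnb2 without Teff replicate 3), while Nrp2 and Sema4a were 6.95-fold and 6.46-fold lower.

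The 12 highest differences under the naming rule included genes of secreted and surface molecules. In a list headed secreted and matrix genes of Anergic cells 8 of 16 tested were called higher and 6 lower. Its members summed to 531 to 711 CPM in Anergic and 214 to 241 CPM in Teff libraries. In Naive libraries they summed to 874 to 989 CPM, so the list as a whole was not particular to Anergic cells. That list was drawn up with earlier results of these data known, so its higher count is not read against all genes. Flrt2, an adhesion protein of neurons and mesenchyme, had 18.7, 12.8 and 11.8 CPM in Anergic libraries and no count in any Teff library, at least 119-fold higher. Edn3, an endothelin, had 12.8, 10.1 and 11.03 CPM in Anergic libraries and 1 count over all Teff libraries, a ratio of 278 (95% counting interval 49.5 to 11022). Spp1, which encodes osteopontin, had 12.7, 8.55 and 11.4 CPM in Anergic libraries and 2 counts over all Teff libraries, a ratio of 134 (95% counting interval 36.6 to 1108), and shares 18.8% of its exon length with a neighbour on the same strand. Sostdc1, an antagonist of BMP and WNT signals, had 95.8, 48.6 and 51.9 CPM in Anergic and 0.463, 0.618 and 0.509 CPM in Teff libraries. The spread between Anergic libraries was wide for Sostdc1, and even its lowest Anergic library was above every Teff library. Its highest value was in Anergic replicate 1, which was likewise well above the other Anergic libraries for Fbn2, Itgb8, Lag3 and Rgs16. Anergic libraries lay closer to each other for Edn3 and Vdr. The extracellular matrix gene Fbn2 had 39.4, 18.2 and 20.2 CPM in Anergic and 0.347, 0.989 and 0.254 CPM in Teff libraries, and the growth factor gene Fgf2 18.7, 13.2 and 17.8 CPM against 0.347, 0.742 and 0.254 CPM in Teff libraries. Vdr, the vitamin D receptor, had 24.3, 21.3 and 23.4 CPM in Anergic and 0.694, 0.495 and 1.27 CPM in Teff libraries. The remaining genes among the 12 highest under the naming rule were Fam160a1, Tshz2, Exph5 and Fam84a beside Itgb8, with log2 fold changes of 5.81, 5.23, 4.81, 4.74 and 5.79. The log2 fold change was 5.91 for Tshz2 without Teff replicate 3, 5.50 for Fam84a without Teff replicate 1 and 6.35 for Fbn2 without Teff replicate 2, and 67.5% of the exons of Tshz2 lie under a gene on the opposite strand. Other members of that list, the opioid precursor gene Penk and Angptl2, had 41.9, 25.2 and 47.7 and 241, 183 and 172 CPM in Anergic libraries and 1.74, 1.48 and 1.65 and 13.997, 11.997 and 13.1 CPM in Teff libraries. Treg libraries averaged 45.4 CPM for Penk and 36.3 CPM for Itgb8, but 0.115 CPM for Sostdc1 and 0 CPM for Flrt2, Edn3 and Spp1. The lower end, beside the killer and Th1 genes already given, held the matrix enzyme genes Mmp9 and Sulf2, the receptor gene Cd93, Ly6c2, whose near copy Ly6c1 may share its reads, and Slc27a6, with log2 fold changes of -4.14, -4.96, -5.20, -4.40 and -3.97. That of Slc27a6 was -4.59 without Anergic replicate 3. The chemokine gene Ccl5, also among the 12 lowest under the naming rule, had 6.22, 4.69 and 8.503 CPM in Anergic and 102, 119 and 88.5 CPM in Teff libraries (log2 fold change -4.01 ± 0.153 SE, adjusted p = 1.1e-15). The subsets were separate for Ccl5.

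**Figure D5:**
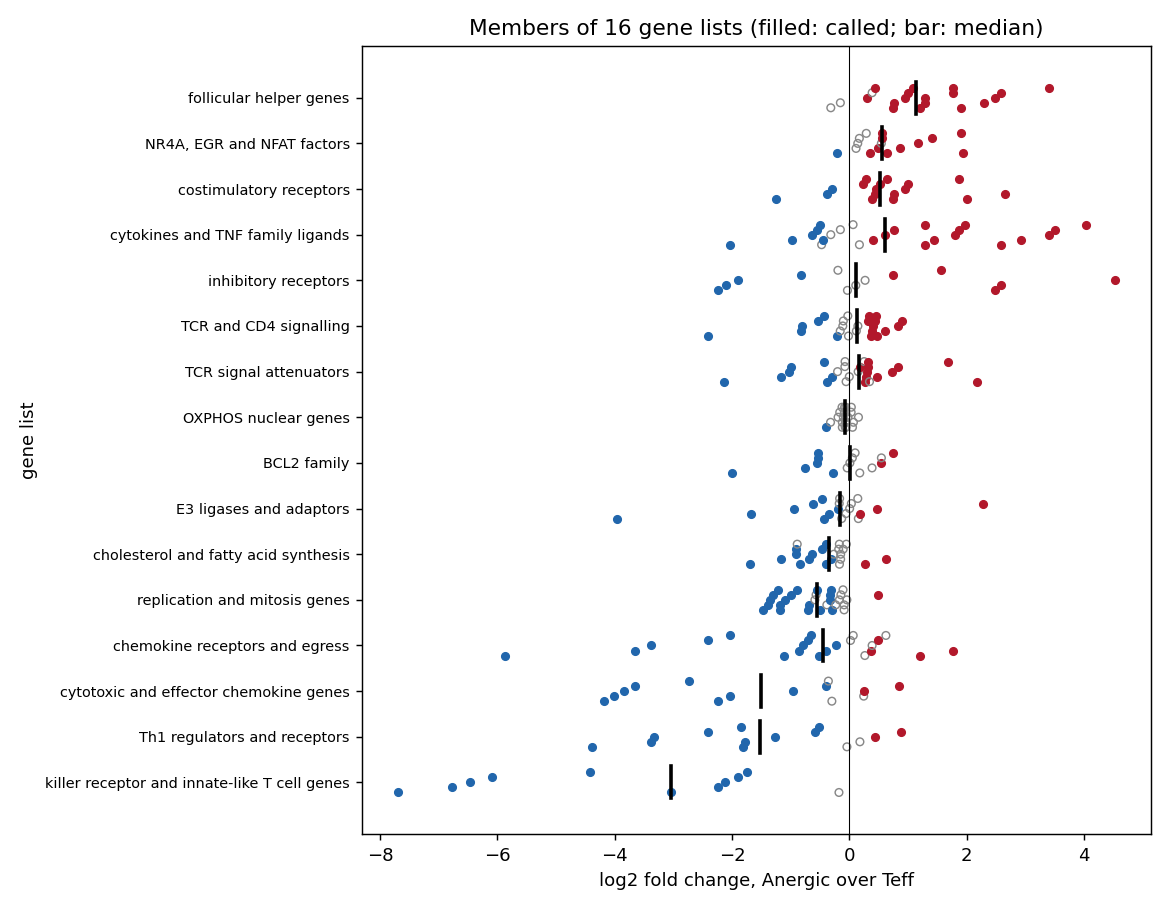
Log2 fold changes of Anergic over Teff for the tested members of 16 gene lists. Each point is 1 gene, filled where called, and the short bar is the list's median; the follicular helper list has a median of 1.14, the killer receptor list -3.04 and the OXPHOS list -0.07.

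Survival and death genes moved in both directions. Of 15 BCL2 family genes tested, 6 were called lower and 2 higher, but 1 higher without Anergic replicate 1 or 2 or without Teff replicate 1 or 2. Bcl2, the anti-apoptotic founder of the family, had 70.8, 54.5 and 60.6 CPM in Anergic and 109, 82.5 and 77.3 CPM in Teff libraries (log2 fold change -0.54 ± 0.105 SE, adjusted p = 0.000354), so the gene for BIM and the gene for a protein that holds BIM in check were both lower. Mcl1, another anti-apoptotic member, had 329.9, 337 and 320.4 CPM in Anergic and 302, 337 and 341 CPM in Teff libraries and was not called (log2 fold change 0.01 ± 0.0619 SE, adjusted p = 0.921). Of the other BH3-only genes, the one for NOXA (Pmaip1) was 1.69-fold higher in Anergic cells and the one for PUMA (Bbc3) 1.69-fold lower. Among death receptors and caspases 6 of 27 were called higher and 6 lower. The inflammatory caspase genes Casp4 and Casp1 were 2.92-fold and 1.87-fold higher. Casp8, the initiator caspase of death receptors, was 1.21-fold and Tnfrsf1a, a death receptor, 1.87-fold lower. None of these called genes overlapped between the subsets.

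Naive and quiescence genes were mostly lower, with exceptions. Of 24 naive and quiescence factors tested, 13 were called lower and 5 higher, or 13 and 3 when scaled by total counts. Satb1, a chromatin organiser of thymocytes and naive T cells, had 111, 164 and 169 CPM in Anergic and 538, 482 and 506 CPM in Teff libraries, against 1171, 1132 and 1103 CPM in Naive libraries. Tcf7, which encodes TCF-1, rose, with 1547, 1638 and 1683 CPM in Anergic and 1057, 1127 and 1159 CPM in Teff libraries. Id2 and Id3, inhibitors of E proteins that mark opposed T cell fates, moved in opposite directions, Id3 with 25.6, 27.3 and 26.4 CPM in Anergic and 9.601, 12.99 and 9.92 CPM in Teff libraries and Id2 with 106, 103 and 112 CPM against 252, 251 and 252 CPM in Teff libraries. No library overlapped for these genes. Proliferation genes were lower. Of 29 replication and mitosis genes tested, 18 were called lower and 1 higher, with a median log2 fold change of -0.55. Mki67 had 84.1, 89.5 and 131 CPM in Anergic and 129, 142 and 159.9 CPM in Teff libraries, against 2.75, 4.205 and 3.33 CPM in Naive libraries (log2 fold change of Anergic over Teff -0.50 ± 0.112 SE, adjusted p = 0.00137). The highest Anergic library overlapped the lowest Teff library, and both subsets were far above Naive cells in this marker of cycling. Rrm2, a ribonucleotide reductase subunit, was 2.13-fold and the mitotic cyclin gene Ccnb2 2.79-fold lower. Of the G1 regulators 5 of 19 were called higher and 7 lower, or 2 and 8 when scaled by total counts and 3 higher without Anergic replicate 1, with the CDK inhibitor gene Cdkn2b at 2.58, 2.23 and 1.59 CPM in Anergic and 0.116, 0.124 and 0.382 CPM in Teff libraries and Myc at 21.2, 27.3 and 31.9 CPM against 43.3, 41.1 and 41.5 CPM in Teff libraries.

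Genes of respiration were seldom called and many genes of lipid synthesis were lower. Of 23 nuclear OXPHOS genes tested, 1 was called lower and none higher, below the share called over all genes, with members between -0.40 and 0.16 on the log2 fold change scale. The called member was Uqcrfs1, at 32.2, 31.05 and 32.8 CPM in Anergic and 40.3, 44.03 and 42.7 CPM in Teff libraries, and when scaled by total counts 4 were lower. Without Teff replicate 2, 1 was higher. Of 22 cholesterol and fatty acid genes tested, 11 were called lower and 2 higher, or 16 and 1 when scaled by total counts. Sqle, which encodes squalene epoxidase of the sterol pathway, was 1.88-fold and Hmgcs1, which encodes an early enzyme of the same pathway, 1.599-fold lower. In glucose handling, the transporter gene Slc2a3 had 19.7, 23.8 and 23.5 CPM in Anergic and 76.3, 67.2 and 67.3 CPM in Teff libraries, and Ldhb, which encodes the lactate dehydrogenase subunit favouring pyruvate, 27.6, 20.5 and 24.8 CPM against 9.14, 14.6 and 14.1 CPM in Teff libraries. Anergic and Teff libraries were separate for both genes of glucose handling. Among adenosine genes, Slc29a1, a nucleoside transporter, rose with Nt5e, with 69.2, 59.3 and 57.4 CPM in Anergic and 21.9, 19.9 and 21.2 CPM in Teff libraries, and Ada, which encodes adenosine deaminase, fell, with 1.06, 1.29 and 1.196 CPM in Anergic and 5.32, 3.83 and 6.11 CPM in Teff libraries. Adora2a, the main adenosine receptor gene of T cells, had 28.98, 26.4 and 25.8 CPM in Anergic and 35.9, 29.3 and 32.6 CPM in Teff libraries and was not called (log2 fold change -0.27 ± 0.104 SE, adjusted p = 0.0590), but was called lower when scaled by total counts (adjusted p = 0.0288), without Anergic replicate 1 (0.0422) or without Teff replicate 2 (0.0294). Of the cyclic AMP enzymes 6 of 18 were called lower and 1 higher (2 without Teff replicate 3), and Pde3b, a phosphodiesterase that breaks cyclic AMP down, had 74.2, 118 and 124 CPM in Anergic and 318, 316 and 298 CPM in Teff libraries.

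Interferon-stimulated genes were lower or not called, 11 of 24 lower and 0 higher, with Oas2 5.24-fold and Ifit1bl1 2.28-fold lower in Anergic cells. Without Anergic replicate 1, 2 members were called higher. Genes of tissue dissociation and heat stress were called in 1 higher and 1 lower case of 16 tested, but 6 were lower with no filter on low counts. Without 1 library, the lower count was 0 without Anergic replicate 3 and 2 without Anergic replicate 2 or Teff replicate 3. Vim, which encodes vimentin, and Crip1, genes high in activated effector T cells, were 1.99-fold and 2.36-fold lower, within a list of S100, annexin and galectin genes where 8 of 19 were lower and 4 higher. Anxa1, an anti-inflammatory annexin gene, had 1.41, 0.117 and 0.664 CPM in Anergic and 9.49, 8.04 and 8.65 CPM in Teff libraries. Among regulators of G protein and MAP kinase signals, Rgs16 had 61.96, 31.98 and 35.5 CPM in Anergic and 4.63, 5.44 and 5.22 CPM in Teff libraries and Dusp5 25.2, 22.6 and 19.7 CPM against 72.2, 59.4 and 57.4 CPM in Teff libraries. These last 3 genes did not overlap between the subsets.

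Marker lists of other cell types were summed beside that of T cells. Genes of T cell identity summed to 5121 to 5556 CPM in Anergic and 3769 to 4235 CPM in Teff libraries, and 9 of 11 rose, Thy1 being the member that fell. B cell markers summed to 195 to 257 CPM in Anergic and 171 to 181 CPM in Teff libraries, of which Ighm had 248, 187 and 191 CPM in Anergic and 178, 167 and 176 CPM in Teff libraries. Ighm was called higher, but not when scaled by total counts (adjusted p = 0.267) or without Anergic replicate 1 (0.335), Teff replicate 1 (0.0511), Teff replicate 2 (0.116) or Teff replicate 3 (0.0729). Of 4 B cell markers tested 3 were called higher and 0 lower, the others called being Ighd, at 3.76, 2.81 and 2.66 CPM in Anergic and 0.231, 0.495 and 0.509 CPM in Teff libraries, and Cd79b, at 2.35, 1.41 and 1.86 CPM against 0.578, 0.742 and 0.891 CPM in Teff libraries. All Anergic libraries were above all Teff libraries for the called members, but 1 was called without Anergic replicate 1 or without Teff replicate 1. The part of B cell transcripts in the differences was not tested. Stromal and endothelial markers summed to 127 to 148 CPM in Anergic and 109 to 110.4 CPM in Teff libraries. Nearly all of this was Pecam1, which T cells also express, at 125, 138 and 145 CPM in Anergic and 109.9, 108 and 109 CPM in Teff libraries (log2 fold change 0.32 ± 0.0675 SE, adjusted p = 0.000804), while the endothelial gene Cdh5 had 1 count in all Anergic and 4 in all Teff libraries. Plasma cell markers summed to 49.7 to 51.9 CPM in Anergic and 41.3 to 47.8 CPM in Teff libraries, mostly Xbp1, and of 2 tested none was called (1 without Teff replicate 1). The part of these transcripts in the differences was not tested. Myeloid and dendritic markers summed to 10.9 to 16.2 CPM in Anergic and 13.2 to 15.2 CPM in Teff libraries, and Ly6g and S100a8 had no count in either. CD8 T cell markers summed to 5.05 to 5.86 CPM in Anergic and 3.70 to 6.23 CPM in Teff libraries. Most of this was Cd8b1, which was tested and not called, while Cd8a had 8 counts in all Anergic and 14 in all Teff libraries. Erythroid and platelet markers summed to at most 1.05 CPM in any of the 6 libraries, and no member had enough counts to be tested.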

How the data were processed

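Whole-number read counts per gene for 12 libraries were used as the authors deposited them. Per the submitters' processing notes and the series' methods text, reads of a stranded total RNA kit were trimmed, aligned to GRCm38 with HISAT2 and counted with featureCounts. Which annotation release was used, and whether counting took the strand into account, is not stated there. Of 54532 entries, 53654 (98.4%) matched 1 GENCODE gene by name. Libraries were grouped by their titles.

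The test was that of edgeR 4.0.16, run under R 4.3.3 (filterByExpr, TMM scaling, quasi-likelihood test, 4 subset means over 12 libraries, two-sided, Benjamini-Hochberg adjustment over 13393 genes). CPM used totals over all entries and TMM factors. Intervals and floors of 3 counts cover counting error only. On simulated data for this comparison with 13018 genes, the test found 80 of 100 genes changed 2-fold and 95 of 100 changed 4-fold, with 7 false calls. Few genes were changed there, and counts were drawn from the spread the test itself had fitted. These figures may not carry over to the data, where 26.6% of genes were called. Alternatives used DESeq2 1.42.0, limma 3.58.1, other scalings and filters, 1 library left out, and the replicate number as a block. Same-numbered Anergic and Teff libraries had deviations that correlated at 0.204, -0.0377 and 0.0536, and the numbers were not taken as pairs in the main test. With 3 libraries a subset this check cannot exclude pairing.

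Members and gene lists were chosen with earlier results of these data known. Library values were given for sort markers, Batf, Bcl2l11, Bcl2, up to 3 members called in each direction per list by adjusted p, and genes of the naming rule. The naming rule took the 12 highest and 12 lowest differences among called genes, list members included. Those genes averaged 10 CPM or more in the higher subset and had no overlapping libraries. Left out were predicted, RIKEN, ribosomal, pseudogene, microRNA, mitochondrial and antigen receptor segment names. Small RNA, clone and date-like names and names held by several entries were left out too, so the extremes named are those of the remaining genes. Library values of Tox2, Dgka, Cblb, Tnfrsf1b, Csf1, Il10, Areg, Ifng, Il2, Il7r, Ifngr1, Tbx21, Runx3, Cxcr3, Eomes, Nkg7, Gzmk, Traj18, Il4, Cd40lg, S1pr1, Penk, Mcl1, Mki67, Myc, Adora2a and Anxa1 fall outside these rules and were chosen after their values were seen. No amino acid sequences were used here.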

Additional observations from a re-analysis of the deposited data

How the results depend on the processing

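Over 15 alternatives the number of called genes lay between 3083 and 3987. Every call shared with the main test kept its direction, which being called in both tests nearly fixes. Of the 3566 main calls, 2917 to 2980 were called again with 1 library left out and 2920 when scaled by total counts. Scaling by total counts called 1218 genes higher and 2276 lower, and a filter of at least 5 CPM in 3 libraries left 697 genes called at 2-fold or more. Leaving out each library in turn gave 3083 to 3257 called genes, 1595 to 1693 higher, 1484 to 1632 lower and 1121 to 1220 at 2-fold or more. With the replicate number as a block 3987 genes were called, 2042 higher and 1945 lower. Whether the numbers pair the libraries is not settled by the check given with the processing. Of 191 named genes tested, 174 kept direction and side of the threshold throughout. Many of them were named for a small adjusted p, so this share does not carry over to all genes. The direction turned for 4 genes that were not called. Scaled by total counts the log2 fold changes were -0.066 for Cblb, -0.073 for Dgka and -0.086 for Mcl1. With 1 library left out they ranged over -0.032 to 0.15 for Cblb, -0.012 to 0.051 for Dgka, -0.066 to 0.30 for Eomes and -0.046 to 0.042 for Mcl1. The cause was not tested. Depth limits genes of a few CPM, and the spread is that of 3 libraries a subset.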

Other observations

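Genes of other helper lineages and of nutrient handling, not described above, were called in both directions. Higher and lower shares were 12.5% and 37.5% for Th2 genes and 16.7% each way for Th17 genes. They were 15% and 30% for glycolysis and glucose uptake and 15.4% each way for the transporters. Several of these shares lie near the 13.9% higher and 12.7% lower over all genes tested. Of 8 Th2 genes tested 1 was higher and 3 were lower in Anergic cells, and of 6 Th17 genes 1 was higher and 1 lower. The higher Th2 count was 0 when scaled by total counts, with no filter on low counts, with only Anergic and Teff libraries, or without Anergic replicate 1, Anergic replicate 3 or Teff replicate 3. The lower Th17 count was 3 with limma voom and 2 without Anergic replicate 2. Il1rl1, which encodes the IL-33 receptor ST2, had 1.17, 0.937 and 1.46 CPM in Anergic and 3.01, 3.46 and 3.82 CPM in Teff libraries. Rora, a nuclear receptor gene of Th17 and innate lymphoid cells, had 59.6, 55.6 and 62.3 CPM in Anergic and 169, 129.6 and 137 CPM in Teff libraries. Every Anergic library was below every Teff library for both. Of 13 DUSP phosphatase genes 4 were higher and 3 lower, or 5 lower when scaled by total counts, with limma voom or under a filter of at least 5 CPM in 3 libraries. Dusp16, a MAP kinase pathway phosphatase, had 11.1, 6.68 and 9.17 CPM in Anergic and 2.66, 2.35 and 3.82 CPM in Teff libraries, and Dusp4 21.8, 18.4 and 22.3 CPM against 9.37, 8.16 and 10.05 CPM in Teff libraries, both opposite in direction to Dusp5. Of 10 RGS genes 3 were higher and 3 lower. Of 20 genes of glycolysis and glucose uptake 3 were higher and 6 lower, or 1 and 7 when scaled by total counts, and 1 was higher without Anergic replicate 2. Of 13 amino acid and nutrient transporter genes 2 were higher and 2 lower (1 lower without Anergic replicate 2 or Teff replicate 3), with Slc1a4, a neutral amino acid transporter, at 3.87, 2.46 and 1.99 CPM in Anergic and 0.463, 0.742 and 0.763 CPM in Teff libraries.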
